A study of Mus musculus with 4 samples.

Results

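NF-κB factors are the proteins through which signals from the T cell receptor, CD28 and receptors of the TNF and IL-1 families reach the genes of a T cell. The set examined here holds 10 genes chosen by symbol, which were the 5 subunit genes Rel, Rela, Relb, Nfkb1 and Nfkb2, the 4 IκB-type genes Nfkbia, Nfkbid, Nfkbiz and Bcl3, and Tnfaip3, among 24087 genes in the expression table. All 10 were expressed in splenic Treg cells and all 10 were among the 11399 genes tested. Without Setd2, the methyltransferase that places H3K36me3, the mRNAs of Bcl3 and Nfkbid were 1.34-fold and 1.41-fold higher. Both passed a threshold of adjusted p under 0.05 (limma), and no member passed it as lower. Of all genes tested, 5.10% passed it as higher and 4.65% as lower. Neither Bcl3 nor Nfkbid passed it when the filter on low values was left out. Nfkb1 and Nfkbiz differed by less than the spread between libraries, and Rel and Tnfaip3 varied more between the libraries of one genotype than between genotypes.

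RNA was sequenced from CD3+CD4+YFP+ cells sorted from the spleens of C57BL/6 mice. The KO libraries came from Foxp3Cre-YFPSetd2f/f mice and the CTRL libraries from Foxp3Cre-YFPSetd2f/+ mice, with 2 libraries per genotype. Mice of both genotypes carried the same Cre-YFP, which is driven by Foxp3 and so acts in Foxp3-expressing cells, and the controls carried 1 floxed Setd2 allele as well. Each library pooled cells of 2 mice, the labels name no treatment and give neither the age nor the sex of the mice, so p-values measure the spread between these pools only.

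The NF-κB subunits work as pairs. In resting cells the pairs are held in the cytoplasm by IκB proteins, and phosphorylation of IκB by the IKK kinases leads to its degradation and frees the pair to enter the nucleus. In the canonical arm the pairs contain RelA or c-Rel, and in the alternative arm RelB pairs with the processed product of Nfkb2. Several inhibitors, IκBα above all, are themselves targets of NF-κB, which closes a feedback loop. In Treg cells c-Rel and RelA are known to be needed for the development of the lineage and for its maintenance.

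Setd2 itself (chr9:110532597-110618633, plus strand, GRCm38) measured 23.4 and 25.3 FPKM in CTRL 1 and 2, against 21.3 and 19.5 in KO 1 and 2. Its difference of -0.24 on the log2 scale did not pass the test (adjusted p = 0.097, limma), and the value covers the whole gene rather than the floxed exons alone. The genotypes did not overlap, with KO the lower. Foxp3 measured 120.6 and 139.8 FPKM in CTRL 1 and 2, against 111.6 and 119.2 in KO 1 and 2, and the summed FPKM of 7 T cell markers was 2422 to 2640 in the 4 libraries. The reads behind the table numbered at least 30574662 to 33183060 per library, and at least 2203 stood behind each value of a member.

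The promoters of these genes are shown because several members are targets of the factors they encode or restrain. RefSeq promoter windows (GRCm38.p6, 250 bases before to 50 after a transcript start, read on the strand of the gene) were held for 7 of the 10 genes. The κB consensus, 10 letters long, was searched on both strands with overlapping matches counted. It was matched in at least 1 window of 6 of those 7 genes, namely Bcl3, Nfkb2, Nfkbia, Nfkbid, Rel and Tnfaip3, and in 8 of the 12 windows of the 7 genes. Over all genes with a window, 2581 of 27025 (9.55%) had a match, as did 8.46% of the 32851 windows. The window of Rela held no match, which says only that these letters are not in that window. Nfkb1, Nfkbiz and Relb were not among the genes with a window. The following 4 are printed because they belong to the called genes Bcl3 and Nfkbid and to Nfkbia and Nfkb2, whose differences were the largest of those not called, and capitals mark the letters matched. The window of Bcl3 (chr7:19822706-19823005, minus strand) has its match beginning at base 3 of the transcript. The window of Nfkbid (chr7:30422156-30422455, plus strand) is 1 of its 3 windows, the only one of them with matches, which begin 226 and 181 bases before the start. In Nfkbia (chr12:55492598-55492897, minus strand) the match begins 29 bases before the start. In Nfkb2 (chr19:46304487-46304786, plus strand) overlapping matches begin 39 and 38 bases before the start and another begins 11 bases before it.
Bcl3: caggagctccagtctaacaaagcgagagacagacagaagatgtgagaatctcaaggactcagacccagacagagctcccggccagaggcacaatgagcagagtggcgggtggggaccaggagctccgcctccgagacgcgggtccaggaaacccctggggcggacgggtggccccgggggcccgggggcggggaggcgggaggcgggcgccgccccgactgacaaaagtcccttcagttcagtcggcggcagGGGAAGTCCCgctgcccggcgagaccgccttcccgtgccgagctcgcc
Nfkbid: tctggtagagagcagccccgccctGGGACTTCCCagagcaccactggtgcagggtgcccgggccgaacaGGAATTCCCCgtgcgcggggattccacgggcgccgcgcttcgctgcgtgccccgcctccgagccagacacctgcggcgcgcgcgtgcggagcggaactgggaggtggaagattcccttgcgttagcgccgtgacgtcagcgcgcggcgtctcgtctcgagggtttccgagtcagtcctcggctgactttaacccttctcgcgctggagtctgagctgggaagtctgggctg
Nfkbia: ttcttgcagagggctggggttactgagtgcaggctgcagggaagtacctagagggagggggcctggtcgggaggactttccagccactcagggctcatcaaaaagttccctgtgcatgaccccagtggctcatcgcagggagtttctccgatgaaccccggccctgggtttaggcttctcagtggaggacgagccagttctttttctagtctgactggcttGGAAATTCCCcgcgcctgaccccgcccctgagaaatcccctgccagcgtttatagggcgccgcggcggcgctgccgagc
Nfkb2: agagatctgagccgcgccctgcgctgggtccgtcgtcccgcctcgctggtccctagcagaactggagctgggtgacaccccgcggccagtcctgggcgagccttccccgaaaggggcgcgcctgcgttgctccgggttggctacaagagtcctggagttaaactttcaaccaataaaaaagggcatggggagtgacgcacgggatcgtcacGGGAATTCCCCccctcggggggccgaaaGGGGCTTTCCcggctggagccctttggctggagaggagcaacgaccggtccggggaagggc
A match describes the sequence and does not show that a factor binds there. Whether NF-κB was bound at these sites in the sorted cells was not measured here.

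Expression was compared as FPKM, which scales fragments to the length of the gene and the depth of the library, so that levels of different genes can be set side by side. Differences between genotypes are KO minus CTRL on the log2(FPKM + 1) scale, fitted with limma over all genes tested, with Benjamini-Hochberg adjusted p under 0.05 called. Of all genes tested 9.75% were called, 5.10% higher and 4.65% lower in KO, and the median difference over all genes was -0.022. Of the 10 members 2 were called higher and 0 lower. The median difference of the members was 0.25, and 9 of 10 differences were above 0. Both KO libraries lay above both CTRL libraries for 6 of the 10 members, against 29.0% of all genes tested, and both lay below for none of them, against 35.5%. At an unadjusted p under 0.05, 5 members were higher in KO and 0 lower, where 16.3% of all genes were higher. The members were read in the same 4 libraries and are not replicates of one another.

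**Figure D1:**
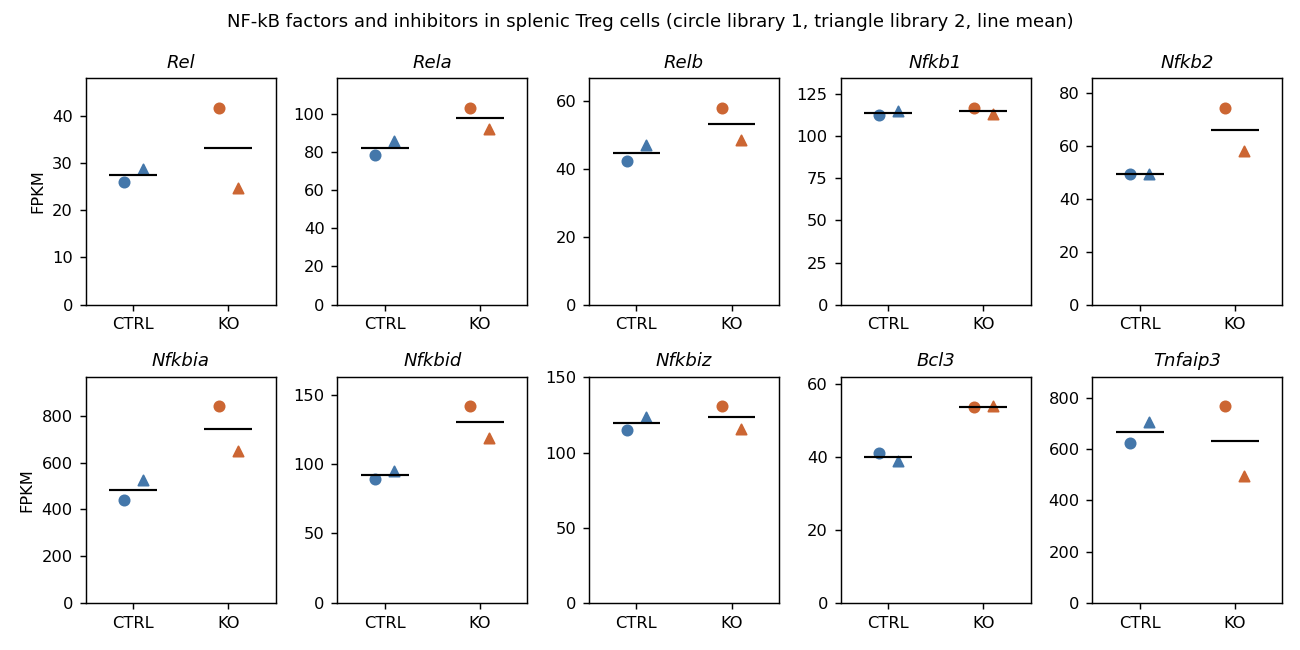
FPKM (vertical axis, starting at 0 in each panel) of the 10 genes in the CTRL and KO libraries, with a circle for library 1, a triangle for library 2 and a line at the mean of the genotype. Both KO points lie above both CTRL points for Rela, Relb, Nfkb2, Nfkbia, Nfkbid and Bcl3, and KO 1 is the highest library of all genes plotted except Bcl3.

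Of the canonical subunits, Rela (ENSMUSG00000024927, chr19:5637483-5648130, plus strand) encodes RelA, a subunit with a transactivation domain that is found in most lymphocytes. It measured 78.7 and 86.0 FPKM in CTRL 1 and 2, against 103.2 and 92.4 in KO 1 and 2. Both KO libraries were higher than both CTRL libraries, but the difference of 0.25 (SE 0.081, 95% interval 0.039 to 0.45) did not pass the test over all genes (adjusted p = 0.105). Means were 82.3 ± 5.16 and 97.8 ± 7.64 FPKM (SD, n = 2 each).

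Rel (ENSMUSG00000020275, chr11:23736847-23770970, minus strand) encodes c-Rel, which acts at the Foxp3 locus during Treg development. It measured 26 and 28.8 FPKM in CTRL 1 and 2, against 41.7 and 24.7 in KO 1 and 2. The KO libraries lay on either side of the CTRL libraries, KO 1 being the highest of the 4 and KO 2 the lowest. The difference was 0.22 with an interval of -0.39 to 0.84 (adjusted p = 0.553), and without KO 1 it was -0.14. The direction for c-Rel thus rested on KO 1.

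Nfkb1 (ENSMUSG00000028163, chr3:135584655-135691547, minus strand) encodes a precursor whose processed form pairs with RelA and c-Rel, and it varied the least between libraries of all 10 members. It measured 112.8 and 114.8 FPKM in CTRL 1 and 2, against 116.9 and 113.5 in KO 1 and 2. Its 4 values overlapped and spanned a range narrower than that of any other member. The difference was 0.018 with an interval of -0.11 to 0.15 (adjusted p = 0.834).

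In the alternative arm, Nfkb2 (ENSMUSG00000025225, chr19:46304320-46312385, plus strand) encodes the precursor that is cut to the partner of RelB. Its level was 49.4 FPKM in both CTRL libraries, 74.2 in KO 1 and 57.8 in KO 2. Both KO libraries were above CTRL, by unequal amounts, with a mean ratio of 1.34 and a difference of 0.40 (SE 0.12, interval 0.085 to 0.71) that missed the threshold (adjusted p = 0.0926). Leaving out KO 1 moved the difference to 0.22 and leaving out KO 2 to 0.58. Annotated exons of Nfkb2 share 531 bases with those of AC114539.1, which was not in the table, and 299 with those of Psd, both on the other strand. Psd measured 14.7 and 14.8 FPKM in CTRL 1 and 2, against 23.7 and 17.3 in KO 1 and 2, so its 4 libraries stood in the same order of genotypes, and since the use of strand in counting was not stated, reads of the shared bases cannot be told apart.

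Relb (ENSMUSG00000002983, chr7:19606217-19629438, minus strand) encodes the other partner. It measured 42.4 and 46.9 FPKM in CTRL 1 and 2, against 57.9 and 48.6 in KO 1 and 2. KO 2 was only slightly above CTRL 2, and the difference of 0.25 (interval -0.020 to 0.51) was not called (adjusted p = 0.167). Without KO 1 it was 0.12 and without KO 2 it was 0.37. Relb and Bcl3 lie 179 kb apart on chromosome 7. The sum of the 5 subunit genes was 309.3 and 325.9 FPKM in CTRL and 394.0 and 337.0 in KO, with 0 of 5 called and a median difference of 0.25.

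**Figure D2:**
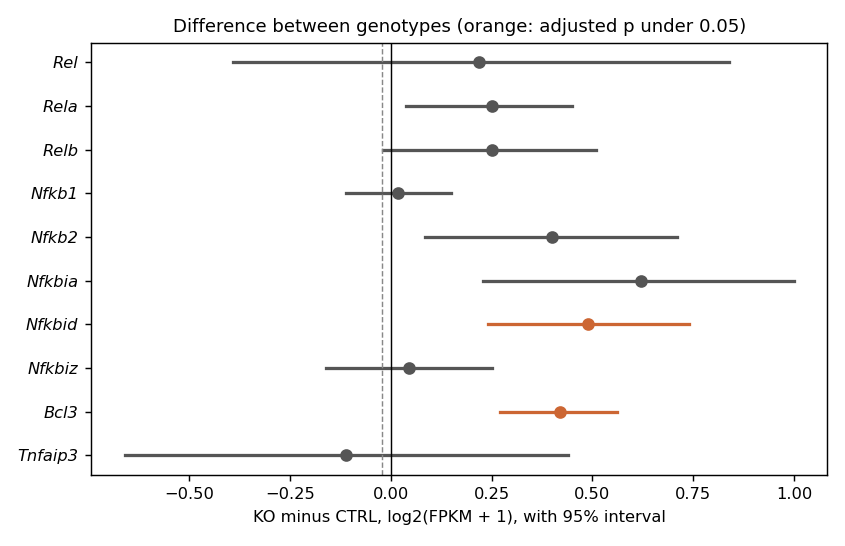
Difference between genotypes for each gene (horizontal axis, KO minus CTRL in log2(FPKM + 1)), with the 95% interval of the limma fit as a line, genes called at adjusted p under 0.05 in orange and the median over all genes tested dashed at -0.022. The intervals of Rela, Nfkb2, Nfkbia, Nfkbid and Bcl3 lie above 0, and those of Rel and Tnfaip3 are the widest.

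Of the IκB-type genes 2 of 4 were called higher, against 5.10% of all genes, with a median difference of 0.45 against -0.022, and the contrast with the subunits was not tested. Bcl3 (ENSMUSG00000053175, chr7:19808462-19822770, minus strand) encodes an atypical, nuclear IκB that binds dimers of the processed Nfkb1 and Nfkb2 products and can act as a coactivator or a repressor. It measured 41.2 and 39.0 FPKM in CTRL 1 and 2, against 53.7 and 53.9 in KO 1 and 2. The KO libraries were nearly equal and both CTRL libraries lay well below them, and Bcl3 was the one member of the 10 for which KO 1 was not the highest library. The mean rose from 40.1 ± 1.55 to 53.8 ± 0.163 FPKM (SD, n = 2 each), a difference of 0.42 (SE 0.057, interval 0.27 to 0.56, adjusted p = 0.0351). Exons of Bcl3 share 161 bases with the antisense gene Gm16175, which was not in the table, and reads of the shared bases cannot be told apart.

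Nfkbid (ENSMUSG00000036931, chr7:30421732-30428746, plus strand) encodes IκBNS, another nuclear IκB, which is known to take part in Foxp3 induction through c-Rel. It measured 89.5 and 94.9 FPKM in CTRL 1 and 2, against 141.6 and 118.6 in KO 1 and 2. The groups did not overlap, the lower KO library being above the higher CTRL library. The mean rose from 92.2 ± 3.80 to 130.1 ± 16.3 FPKM, a difference of 0.49 (SE 0.097, interval 0.24 to 0.74, adjusted p = 0.0462), just under the threshold. With any 1 of the 4 libraries left out, neither Bcl3 (adjusted p = 0.109 to 0.14) nor Nfkbid (0.0888 to 0.176) was called, and at most 1 gene of the whole table was called in each direction. With no filter on low values both calls were lost as well (adjusted p = 0.086 and 0.106), as were those of all other genes. The call of Nfkbid, though not that of Bcl3, was also lost with quantile normalization, without the intensity trend of the variance and with the exon length trend removed (adjusted p = 0.0619 to 0.0686).

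Nfkbia (ENSMUSG00000021025, chr12:55489410-55492647, minus strand) encodes IκBα, the classical cytoplasmic inhibitor and feedback target. It had the largest difference of the 10 and the most unequal KO libraries of the IκB genes in FPKM, at 442.6 and 526.1 in CTRL and at 841.7 and 650.3 in KO. Both KO libraries were above both CTRL libraries. The difference of 0.62 (SE 0.15, interval 0.23 to 1.00) had an adjusted p of 0.0622, outside the threshold, against 0.0462 for Nfkbid just inside it. Nfkbia was called by limma-voom on the recovered reads (adjusted p = 0.034) and among genes with a mean FPKM above 5 (0.0491). Relative to Rela, whose product it holds back, Nfkbia stood at 5.63 and 6.12 times in CTRL and at 8.15 and 7.04 times in KO. That ratio was higher in both KO libraries than in both CTRL libraries.

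Nfkbiz (ENSMUSG00000035356, chr16:55811375-55838899, minus strand) encodes IκBζ, a nuclear IκB needed for a subset of secondary response genes. It measured 114.8 and 124.0 FPKM in CTRL 1 and 2, against 130.8 and 115.9 in KO 1 and 2. The groups overlapped, and the difference of 0.045 (interval -0.16 to 0.25, adjusted p = 0.731) had an upper bound close to the lower bound for Bcl3. The nuclear IκB genes thus had unequal values, with Bcl3 and Nfkbid called higher and Nfkbiz not, and the difference between them was not tested. The ratio of Bcl3 to Nfkb1, whose product it binds, was 0.365 and 0.340 in CTRL and 0.459 and 0.475 in KO.

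Tnfaip3 (ENSMUSG00000019850, chr10:19000910-19015657, minus strand) encodes A20, a ubiquitin-editing enzyme that ends NF-κB signalling upstream of the IKK complex and is itself a target of NF-κB. It measured 624.0 and 706.6 FPKM in CTRL 1 and 2, against 766.5 and 493.2 in KO 1 and 2. The KO libraries were the highest and the lowest of the 4, so the groups overlapped. The difference was -0.11 with an interval of -0.66 to 0.44 (adjusted p = 0.75), and without KO 2 it was 0.21. The direction for Tnfaip3 thus rested on KO 2, while Nfkbia, the other abundant feedback inhibitor, was above CTRL in both KO libraries.

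Ordered by level over all 4 libraries, Tnfaip3 (mean 647.6 FPKM, from 493.2 to 766.5) and Nfkbia (615.2, from 442.6 to 841.7) came first and overlapped. Tnfaip3 was above Nfkbia in both CTRL libraries and below it in both KO libraries. A wide step, with no overlap, separated them from Nfkbiz (121.3), which was followed by Nfkb1 (114.5), Nfkbid (111.2) and Rela (90.1). Neighbours within that second tier overlapped in range. Rela did not overlap with Nfkb2 (57.7), and Nfkb2, Relb (48.9), Bcl3 (46.9) and Rel (30.3) each overlapped with the next. Tnfaip3 and Nfkbia were thus several times more abundant as mRNA than any subunit, in both genotypes.

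KO 1 stood apart from KO 2 in this group of genes. It was the highest of the 4 libraries for 9 of the 10 members, and for 2600 of the 11399 genes tested. The median of KO 1 minus KO 2 was 0.25 over the members and -0.011 over all genes. A list of 23 immediate-early genes, which respond within minutes to stimulation or handling, showed an ordering of the same kind. In it KO 1 was above KO 2 for 22 of 23 genes, and CTRL 1 above CTRL 2 for 5 of 23, against 2 of 10 members. Over the 11399 genes tested, KO 1 was above KO 2 for 5291 and CTRL 1 above CTRL 2 for 6092. The summed FPKM of that list was 5159 and 6021 in CTRL and 6381 and 5390 in KO. Its most abundant gene was Junb, at 1526 and 1985 FPKM in CTRL and 2178 and 1628 in KO. Junb also stands in the list of NF-κB target genes, so the lists are not separate. Of the 23 genes only Dusp2 was called higher, by 0.29 (adjusted p = 0.0476), and only Fos lower, at -0.44 (adjusted p = 0.0346). Of all genes 5.10% and 4.65% were called. The part of this ordering in the values of the members was not tested.

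Other cells could add RNA to the sort, and in bulk libraries fewer cells of a type and less RNA per cell cannot be told apart. The summed FPKM of B cell markers was 931.6 and 667.5 in CTRL and 1298 and 1200 in KO, of which Ighm alone made 892.5, 637.2, 1238 and 1162. None of the 7 B cell markers tested was called by limma (Ighm adjusted p = 0.0629). At an unadjusted p under 0.05, 4 of 7 were higher in KO, against 16.3% of all genes. For 4 of 7 both KO libraries lay above both CTRL libraries (Ighm, Ighd, Cd22 and Cd79b), against 29.0% of all genes. Cd79a overlapped at 3.57 to 10.0 FPKM, and KO 1 was the highest library for all 7, against 22.8% of all genes. Myeloid markers summed to 251.6 and 161.5 in CTRL and 330.1 and 131.1 in KO, with 0 of 11 called and Lyz2 the most abundant at 60.0 to 153.1. KO 1 was above KO 2 and CTRL 1 above CTRL 2 for all 11 myeloid markers tested. Erythroid markers summed to 4.16 to 38.5, with 0 of 3 called, and CD8 T cell markers to 11.4 to 14.9, with 1 of 3 called, Gzmk. Treg markers summed to 1944 and 2008 in CTRL and 2183 and 2123 in KO, with 2 of 8 called, Tnfrsf4 and Capg, both higher. Il2ra, at 123.3 and 148.4 in CTRL and 95.4 and 117.3 in KO, and Foxp3 had both KO libraries below both CTRL libraries and were not called. The part of other cells in the differences of the members was not tested.

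The rest of the pathway was read from lists of 111 genes by role, of which 105 were tested, 12 called higher and 2 called lower, against 5.10% and 4.65% of all genes. The median difference over the 105 was 0.020, close to the -0.022 of all genes. Both KO libraries lay above both CTRL libraries for 43 of them and below for 35, against 29.0% and 35.5% of all genes. Without any 1 library, or with no filter on low values, none of these pathway genes was called by limma.

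Of 9 ligand genes tested, 0 were called in either direction by limma. Ltb, a subunit of the lymphotoxin that engages the alternative arm, was the most abundant at 483.5 and 593.2 FPKM in CTRL and 552.7 and 550.8 in KO. Of 12 receptors, 3 were called higher and 1 lower, against 5.10% and 4.65% of all genes, with a median of 0.027. Tnfrsf4 (OX40) rose from a mean of 289.4 to 359.0 FPKM (0.31, adjusted p = 0.0402), Tnfrsf9 (4-1BB) from 59.3 to 77.5 (0.38, adjusted p = 0.040) and Tnfrsf1b (TNFR2) from 83.5 to 100.8 (0.27, adjusted p = 0.045). All belong to the TNF receptor family, as do Tnfrsf25, at 61.7 and 62.7 FPKM in CTRL and 47.9 and 52.5 in KO (-0.30, adjusted p = 0.0512), and Cd27, neither of which was called and both of which had both KO libraries below CTRL. Over the 12 receptors both KO libraries lay below CTRL for 6 and above for 3, against 35.5% and 29.0% of all genes. With quantile normalization Tnfrsf4, Tnfrsf9 and Tnfrsf1b were not called (adjusted p = 0.0721, 0.0531 and 0.0865), and the differences of Tnfrsf4 and Tnfrsf1b were both 0.18. Without the intensity trend none of these 3 receptors was called (adjusted p = 0.0584 to 0.0758). With the exon length trend removed Tnfrsf4 (adjusted p = 0.0631) and Tnfrsf9 (0.0502) were not called, while Tnfrsf1b was (0.0476). Il1rl1, the receptor for IL-33, fell from 11.2 and 12.6 FPKM in CTRL to 4.21 and 6.25 in KO (-1.07, adjusted p = 0.0379).

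In a list of 16 adaptors and proteins that act with them, only Myd88 was called (0.28, adjusted p = 0.0486). Myd88 links IL-1 family and Toll-like receptors to the pathway. Of the 16 genes, 9 had both KO libraries above CTRL, against 29.0% of all genes. The call of Myd88 was lost with quantile normalization (adjusted p = 0.0685), without the intensity trend of the variance (0.0746) and with the exon length trend removed (0.0619). Myd88 exons share 290 bases with Acaa1a on the other strand. Prkcq, a kinase that acts downstream of the T cell receptor and CD28, was the most abundant of that list at 119.6 and 116.6 FPKM in CTRL and 105.6 and 114.9 in KO. A list of kinases and their regulatory subunits, which includes the IKK complex, held 11 genes. Of these, 9 had both KO libraries below both CTRL libraries, against 35.5% of all genes, and 10 had differences below 0. Ikbkb, the catalytic IKK subunit of the canonical arm, fell from 56.8 and 58.1 to 45.6 and 47.4 FPKM (-0.30, SE 0.055, adjusted p = 0.042), but at -0.13 it was not called once the trend with exon length was removed (adjusted p = 0.166). Map3k8 rose from 14.5 and 15.1 to 18.3 and 18.7 FPKM (0.31, adjusted p = 0.0487), a call lost without the intensity trend (adjusted p = 0.0632) and with the exon length trend removed (0.0505). It encodes Tpl2, a kinase that the Nfkb1 precursor binds. Ikbke was the most abundant of the kinases, at 122.0 to 139.8 FPKM, and was not called (adjusted p = 0.139).

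Of 12 other IκB genes and inhibitors 1 was called. Nfkbib, which encodes IκBβ, rose from 38.3 and 37.0 FPKM in CTRL to 58.2 and 50.3 in KO (0.51, SE 0.085, adjusted p = 0.0385), a difference close to those of Nfkbid and Nfkbia. Nfkbib was not called without the intensity trend (adjusted p = 0.0535). Its exons share 42 bases with Sirt2 on the other strand, which itself was called higher (0.27, adjusted p = 0.0469), and 314 with Ccer2, which was not in the table. Ppp4c was the most abundant of the list, at 108.0 to 133.2 FPKM, and was not called. Of 15 genes tested in a list of ubiquitin ligases, deubiquitinases and related regulators, N4bp1 alone was called. It rose from 16.8 and 17.4 FPKM in CTRL to 24.9 and 23.5 in KO (0.48, adjusted p = 0.0351). Rbck1, a part of the linear ubiquitin ligase, was the most abundant at 87.6 to 98.8 FPKM.

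Of 30 target genes tested 5 were called higher and 0 lower, against 5.10% and 4.65% of all genes, with a median of 0.15. Irf4, a factor of effector Treg cells, rose from 18.0 and 16.7 FPKM to 35.7 and 28.0 (0.83, adjusted p = 0.0355). Ebi3, a subunit of IL-35, rose from 20.1 to 31.9 on average (0.65, adjusted p = 0.0329), the chemokine gene Ccl5 from 45.3 to 67.4 (0.56, adjusted p = 0.0346) and Irf1 from 120.4 to 173.0 (0.51, adjusted p = 0.0386). Psmb9, an immunoproteasome subunit, rose from 169.2 to 221.3 (0.38, adjusted p = 0.0352). Without the intensity trend Irf1 (adjusted p = 0.054) and Psmb9 (0.0529) were not called, while Irf4, Ebi3 and Ccl5 were. Annotated exons of Ebi3, Irf1 and Psmb9 overlap those of a gene on the other strand by 270, 135 and 212 bases. Both KO libraries lay above CTRL for 15 of the 30 targets, against 29.0% of all genes, and KO 1 was the highest library for 16 of them (53.3%, against 22.8% of all genes). Junb, the most abundant, was at 1526 and 1985 FPKM in CTRL and 2178 and 1628 in KO, with overlapping groups and a difference of 0.11 (adjusted p = 0.707).

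**Figure D3:**
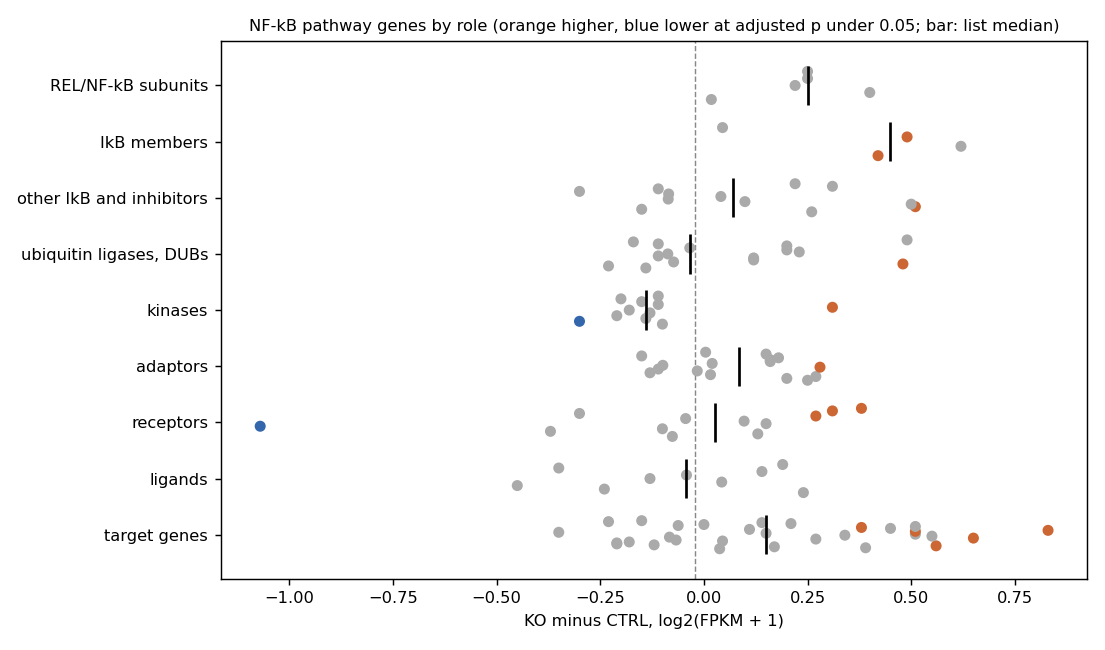
Each point is 1 gene of the NF-κB pathway, placed by its difference between genotypes (horizontal axis, KO minus CTRL in log2(FPKM + 1)) in the row of its role, with genes called higher in orange, called lower in blue, the median of each list as a bar and the median of all genes dashed. The IκB members have a median of 0.45 and the target genes of 0.15. The list of kinases and their regulatory subunits has a median of -0.14, and Il1rl1, among the receptors, stands at -1.07. Tnfaip3, the single member of its role, is not drawn.

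The members differ widely in the length of genome they span. The 2 called genes span 7.01 kb (Nfkbid) and 14.3 kb (Bcl3), Nfkbia spans 3.24 kb and Nfkb2 8.07 kb. Nfkb1, at 106.9 kb the longest, and Nfkbiz, at 27.5 kb, had the smallest differences, and Tnfaip3, at 14.7 kb, had the one below 0. Rel, at 34.1 kb longer than Nfkbiz, had a difference of 0.22. Rela, at 10.6 kb shorter than Bcl3, and Relb, at 23.2 kb, both had 0.25. Over all genes tested the median difference was 0.011 for the 6330 genes spanning at most 25 kb, of which 410 were called higher and 293 lower. It was -0.053 for the 5067 longer genes, of which 171 were called higher and 237 lower. The members were not tested for a relation with length.

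**Figure D4:**
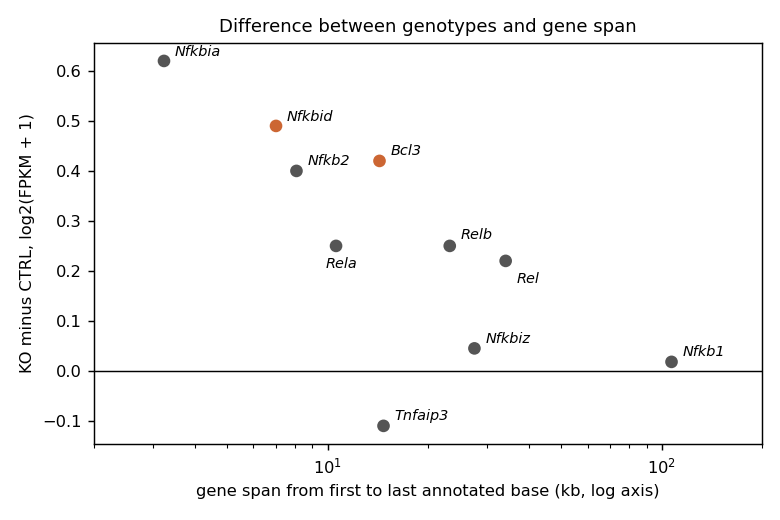
Difference between genotypes (vertical axis, KO minus CTRL in log2(FPKM + 1)) against the span of the gene from its first to its last annotated base (horizontal log axis, kb) for the 10 members, with called genes in orange. Nfkbia, Nfkbid and Nfkb2, each under 10 kb, lie between 0.40 and 0.62. Rela, at 10.6 kb, lies at 0.25, Rel, at 34.1 kb, at 0.22, and Nfkb1, at 106.9 kb, at 0.018.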

How the data were processed

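RNA-seq was performed on sorted splenic Treg cells, with 2 libraries for each of 2 genotypes. The authors mapped 150 bp read pairs to mm10 with HISAT2 (2.2.1), counted them with featureCounts (2.0.1) and deposited FPKM per gene. The gene lengths and the use of strand were not given in the sources used here. Columns named WT were read as the CTRL libraries of the same number. Since the values are not counts, limma (3.58.1, R 4.3.3) took the place of the edgeR fit of the study.

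The 10 members, the pathway lists, the marker lists and the tests were chosen with earlier results of these data known. The deposited FPKM were taken to log2(FPKM + 1), and KO was set against CTRL by a linear model with trended moderation of the variance. The 11399 genes reaching an FPKM of 1 in 2 or more libraries entered the fit. Calls needed a two-sided Benjamini-Hochberg adjusted p under 0.05 across these genes. Lists were described by counts and medians only. Named genes were Setd2, the 10 members, every called pathway gene up to 5 per direction and list, and the most abundant gene of each list. A few others (Psd, Sirt2, Ighm, Cd79a, Dusp2, Fos, Foxp3, Il2ra, Gzmk, Capg, Cd79b, Cd22, Ighd, Tnfrsf25 and Cd27) were named after their values were seen. Some genes of these lists are not reported here by name and remain in the counts.

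All 19888 genes above 0 gave whole reads within 0.002 reads when FPKM was divided by the step of 1 read, which gave the least number of reads per value. Positions came from GENCODE vM21 (GRCm38) and promoters from RefSeq. The procedure was tested on simulated data in 10 runs, each with 200 genes changed by 1 on the log2 scale. Of the changed genes 83.6% were called, and 7.83% of the calls were of unchanged genes. Smaller changes, such as those of the members, were not simulated. Python 3.11.15 was used elsewhere.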

Additional observations from a re-analysis of the deposited data

How the results depend on the processing

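The limits lie in 2 libraries per genotype. Bcl3 was past the threshold in 10 of 11 settings that kept all 4 libraries, Nfkbid in 7, Nfkbia in 3 and Nfkb2 in 1, and in these settings no member other than Nfkb1 and Nfkbiz changed sign. With no filter on low values, limma called 0 genes higher and 0 lower (2212 and 2251 at an unadjusted p under 0.05), 0 members (5 higher at an unadjusted p) and 0 pathway genes higher and 0 lower (32 and 14). Limma-voom on the recovered reads called 878 genes higher and 1009 lower. Among them 3 members were higher, and 17 pathway genes were higher and 5 lower. Quantile normalization left 1 member, 8 higher and 4 lower pathway genes, and gave Nfkb1 -0.08 and Nfkbiz -0.07. Without the intensity trend 315 genes, 1 member and 4 pathway genes were higher, and 364 genes and 1 pathway gene were lower. With the exon length trend removed 515 genes were higher and 321 lower, 1 member was called and Ltb was at -0.023. Causes of these shifts were not tested.

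Libraries with the same number share no stated litter or day. Deviations of the libraries numbered 1 from their group means correlated across genes, which are not independent, at a Pearson r of 0.342 and a Spearman rho of 0.0553. A fit with the replicate block called 968 genes higher and 805 lower, 4 members (Nfkb2 and Nfkbia added, adjusted p = 0.0409 and 0.0355) and 19 pathway genes higher and 6 lower.

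Leaving out each library in turn, with the lone library assumed to vary like the others, left 0 to 1 genes higher and 0 to 1 lower, 0 members and 0 pathway genes in either direction. The difference ranged from 0.43 to 0.80 for Nfkbia, 0.22 to 0.58 for Nfkb2, 0.17 to 0.32 for Rela and 0.12 to 0.37 for Relb. Adjusted p was 0.109 to 0.14 for Bcl3, whose difference ranged from 0.38 to 0.45, and 0.0888 to 0.176 for Nfkbid, at 0.36 to 0.61. Differences ranged over 0 for Rel (-0.14 to 0.59), Nfkb1 (-0.0034 to 0.039), Nfkbiz (-0.041 to 0.13), Tnfaip3 (-0.43 to 0.21), Ltb (-0.10 to 0.19) and Junb (-0.097 to 0.32).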
